A study of Mus musculus with 6 samples.

Results

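The 30 genes described here encode the machinery that carries a cell through G2 and mitosis. They were taken as a named list that runs from CDK1 and its cyclins through the mitotic kinases, kinesins and spindle proteins to the factors of cytokinesis. They were found by gene symbol among the 35905 genes to which the deposited transcripts could be assigned. All 30 passed the low-count filter and were among 13247 genes tested, with at least 594 estimated counts in every library. Expression was measured by RNA sequencing in a pair of related mouse breast cancer lines, EO771-tdT-LM2 (called LM2) and EO771-tdT-Parental (called Parental), with 3 libraries of each. EO771 is a mouse mammary tumour line. Both lines carry the genotype label WT and share the tag tdT in their names, and both grew for 48 h, to near 75% confluence, in RPMI 1640 supplemented with 10% bovine serum. The labels do not say how LM2 was derived, and the suffix Ac6 carried by Parental titles is left unexplained. They also do not say whether a line's 3 libraries are from different flasks, so the spread behind each p-value may be technical.

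Entry into mitosis is driven by CDK1 bound to cyclin A or cyclin B. Polo-like and Aurora kinases then build the spindle, and the spindle checkpoint holds back the anaphase-promoting complex, the ubiquitin ligase that destroys cyclin B and securin, until every chromosome is attached. Most of these genes are transcribed in G2 by the MuvB complex with the activators B-MYB and FOXM1, and in quiescent cells the same complex, as DREAM, represses them. Their RNA is for this reason widely used as a measure of proliferation in tumours. In bulk RNA, fewer cells in G2 and mitosis and less RNA of these genes per cell cannot be told apart.

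Libraries held 33922699 to 38182191 estimated counts in LM2 and 36597892 to 45849019 in Parental. Of the 6 epithelial markers 3 were tested, and all 3 were higher in LM2. Krt8 stood at 568 CPM (a gene's count scaled by library size) in LM2 and 420 CPM in Parental, Epcam at 14.97 CPM in LM2 and 0.154 CPM in Parental, and Krt14 at 8.47 CPM in LM2 and 1.11 CPM in Parental, while Cdh1, Krt18 and Krt5 averaged below 0.2 CPM in both lines. Summed over the 7 leukocyte markers, CPM was 0.955 to 1.30 in LM2 libraries and 2.62 to 2.95 in Parental libraries, with Adgre1 at 0 in all. The 4 endothelial markers summed to 4.12 to 4.60 CPM in LM2 and 3.40 to 4.19 CPM in Parental. The 5 fibroblast markers summed to 215 to 242 CPM in LM2 and 173 to 181 CPM in Parental, nearly all of it from Pdgfra and Pdgfrb, with Dcn and Lum averaging below 0.1 CPM in both lines. The part of these differences in the results was not tested.

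Most of the mitotic genes were slightly lower in LM2. In edgeR's quasi-likelihood test, with p adjusted over all tested genes by Benjamini and Hochberg, 26 of the 30 members were called, against 62.4% of all tested genes. Of the 30, 23 were lower in LM2, against 31.1% of all tested genes called lower. Only 3 were higher, Cdc20, Cdca8 and Anln, against 31.4% of all tested genes called higher. Bub1b, Kif2c, Ttk and Ect2 did not pass. The median log2 fold change of the members, LM2 over Parental, was -0.21, against 0.00 for all tested genes, which corresponds to a level 1.15-fold lower. In all 23 members called lower, the 3 LM2 libraries lay below the 3 Parental libraries, an arrangement found for 33.6% of all tested genes. In 5 members, the 3 that rose and Bub1b and Kif2c, they lay above, against 33.4% of all tested genes. At 1.2-fold or more, 11 members were lower, against 17.2% of all tested genes. The falls were small, and standard errors of the log2 fold changes lay between 0.02 and 0.07.

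**Figure D1:**
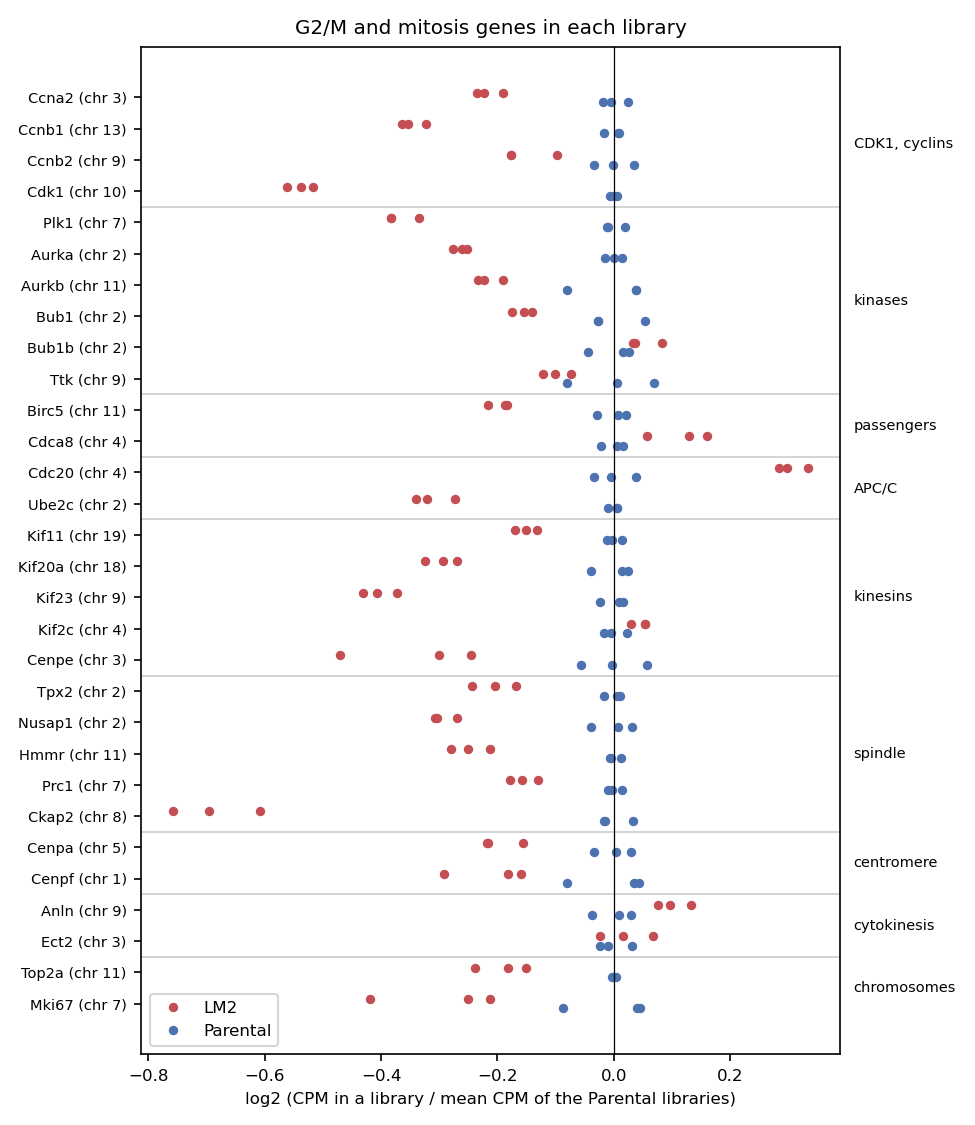
Level of each of the 30 genes in every library, as log2 of its CPM over the mean CPM of the 3 Parental libraries, with LM2 points above Parental points in each row and the chromosome beside each name. LM2 points lie left of the Parental points for 23 genes that were called lower, and right of them for Cdc20, Cdca8 and Anln, which were called higher.

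The libraries of a line were close to each other. The median over the 30 genes of log2 CPM relative to the Parental mean was -0.21 in each of the 3 LM2 libraries and between -0.01 and 0.01 in the Parental libraries. Summed over the 30 genes, TPM (a level per transcript length, scaled to the same total in each library) was 3304, 3375 and 3334 in LM2 replicates 1 to 3, against 3776, 3781 and 3762 in Parental replicates 1 to 3. The LM2 mean of 3337 ± 35.7 TPM was 0.885 of the Parental mean of 3773 ± 10.0 TPM (SD, n = 3 each). As a share of all estimated counts the members took 0.472% ± 0.00484 in LM2 and 0.532% ± 0.00263 in Parental. The LM2 and Parental libraries do not overlap in either measure.

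The genes share promoter sequence that their choice did not use. MuvB binds a short element near the start site, the cell cycle genes homology region (CHR), written TTTGAA or TTCGAA, and the factor NF-Y binds CCAAT boxes upstream of it. Promoter windows of 250 bases before to 50 after the start were taken from RefSeq on GRCm38.p6 for 26 members. Ccna2, Aurkb, Tpx2 and Kif20a are the members without one. On either strand, 22 of the 26 (84.6%) held TTTGAA or TTCGAA, against 21.7% of the 27025 genes with a window. CCAAT was held by 22 (84.6%), against 41.1%, and both motifs by 20 (76.9%), against 8.61%. At least 2 CCAAT matches were found in 15 members (57.7%), against 13.3% of all genes. Among genes tested for expression the share with both motifs was 7.12%. Both motifs were present in 15 of the 19 members that fell and have a window, in 2 of the 3 that rose and in 3 of the 4 that did not pass. A match is a description, not a binding site, and matches of the 2 motifs were counted separately, so they may overlap.

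The windows of the 3 largest falls and the 3 rises show these letters at both ends of the response. Capitals mark TTTGAA or its reverse complement TTCAAA, the palindrome TTCGAA, and CCAAT or its reverse complement ATTGG, and each window is read 5′ to 3′ on the strand of its gene. They lie on GRCm38.p6 at chr8:22185770-22186069 (Ckap2, minus strand), chr10:69352863-69353162 (Cdk1, minus strand), chr9:61946750-61947049 (Kif23, minus strand), chr4:118437294-118437593 (Cdc20, minus strand), chr4:124936868-124937167 (Cdca8, minus strand) and chr9:22389157-22389456 (Anln, minus strand).
Ckap2: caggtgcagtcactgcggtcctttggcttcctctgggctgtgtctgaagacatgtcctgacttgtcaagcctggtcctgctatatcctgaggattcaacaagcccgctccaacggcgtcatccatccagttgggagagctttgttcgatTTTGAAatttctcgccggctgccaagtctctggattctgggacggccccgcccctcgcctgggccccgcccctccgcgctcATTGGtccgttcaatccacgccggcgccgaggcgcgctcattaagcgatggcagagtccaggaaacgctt
Cdk1: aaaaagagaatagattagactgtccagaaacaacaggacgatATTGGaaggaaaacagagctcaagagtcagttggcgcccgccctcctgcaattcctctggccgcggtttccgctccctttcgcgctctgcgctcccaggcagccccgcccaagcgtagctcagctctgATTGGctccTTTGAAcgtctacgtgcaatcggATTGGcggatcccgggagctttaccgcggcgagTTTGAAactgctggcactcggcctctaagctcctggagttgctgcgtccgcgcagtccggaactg
Kif23: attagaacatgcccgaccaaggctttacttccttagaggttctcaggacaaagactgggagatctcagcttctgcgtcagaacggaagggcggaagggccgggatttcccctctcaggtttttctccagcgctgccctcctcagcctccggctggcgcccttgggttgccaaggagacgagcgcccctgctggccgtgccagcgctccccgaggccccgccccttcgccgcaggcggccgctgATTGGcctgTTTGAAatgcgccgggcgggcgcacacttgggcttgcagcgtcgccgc
Cdc20: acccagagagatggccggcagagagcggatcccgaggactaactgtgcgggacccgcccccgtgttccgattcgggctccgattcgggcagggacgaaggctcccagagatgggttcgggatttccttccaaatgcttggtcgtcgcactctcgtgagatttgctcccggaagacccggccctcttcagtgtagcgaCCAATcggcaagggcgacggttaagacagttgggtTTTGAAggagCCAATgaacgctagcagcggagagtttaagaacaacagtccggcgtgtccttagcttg
Cdca8: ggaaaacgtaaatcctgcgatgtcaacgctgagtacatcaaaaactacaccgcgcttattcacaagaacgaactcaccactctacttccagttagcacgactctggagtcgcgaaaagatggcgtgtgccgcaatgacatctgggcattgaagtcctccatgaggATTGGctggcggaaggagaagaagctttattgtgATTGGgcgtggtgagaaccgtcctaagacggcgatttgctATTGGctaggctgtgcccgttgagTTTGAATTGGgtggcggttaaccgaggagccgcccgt
Anln: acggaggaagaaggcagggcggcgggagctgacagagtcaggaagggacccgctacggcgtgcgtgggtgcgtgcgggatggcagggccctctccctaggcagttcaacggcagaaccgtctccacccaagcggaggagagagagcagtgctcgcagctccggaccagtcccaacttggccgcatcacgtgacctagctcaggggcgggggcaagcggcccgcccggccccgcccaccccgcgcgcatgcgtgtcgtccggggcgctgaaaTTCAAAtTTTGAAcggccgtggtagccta

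The window of Anln holds 2 CHR matches and no CCAAT match. The windows of Ckap2, Cdk1, Kif23, Cdc20 and Cdca8 hold both motifs, so genes that fell and genes that rose carry the same pair of letters. Cdca8 has 4 CCAAT matches, Cdk1 has 3, and Ckap2 and Kif23 have 1 each. In Cdca8 the TTTGAA match overlaps an ATTGG match.

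The 4 genes of the mitotic CDK and its cyclins all fell. Cdk1, which encodes the kinase that drives entry into mitosis, had 142, 140.2 and 138 CPM in LM2 replicates 1 to 3, against 202.7, 203.6 and 205 CPM in Parental replicates 1 to 3. Its LM2 libraries lay far below its Parental libraries, and its level was 1.45-fold lower (log2 fold change -0.54 ± 0.02 SE, edgeR adjusted p = 3.12e-14). Ccnb1, the cyclin B1 gene, whose product is destroyed at anaphase, had 172, 169 and 168 CPM in LM2 and 217, 217 and 213 CPM in Parental. It was 1.27-fold lower in LM2 (log2 fold change -0.35 ± 0.02). Ccna2, the cyclin A gene that acts in S phase and G2, averaged 249.5 ± 4.07 CPM in LM2 and 289.9 ± 4.37 CPM in Parental. Ccnb2, the second B-type cyclin, fell least of the 4, with 73.9 ± 2.34 CPM in LM2 and 82.0 ± 1.93 CPM in Parental (SD, n = 3 each). Of the 31-base words of Ccnb1 transcripts, 27.8% occur in other genes, chiefly in the pseudogene Ccnb1-ps, which was assigned 0.0175 CPM in LM2 and 0.0496 CPM in Parental.

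Of the 6 mitotic kinase genes 4 fell. Plk1, the polo-like kinase of spindle assembly and mitotic entry, had 129.8, 134 and 129.9 CPM in LM2 replicates 1 to 3 and 168, 168 and 172 CPM in Parental, a log2 fold change of -0.37 ± 0.03. Aurka, the centrosomal Aurora kinase, averaged 85.2 ± 0.708 CPM in LM2 and 102 ± 1.010 CPM in Parental, with a log2 fold change of -0.26. Aurkb, the Aurora kinase of the chromosomal passenger complex, stood at 84.1 ± 1.33 CPM in LM2 and 97.7 ± 4.55 CPM in Parental, with a log2 fold change of -0.22. Bub1, a checkpoint kinase at the kinetochore, fell to 104 ± 1.24 CPM in LM2, against 115 ± 3.73 CPM in Parental.

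The other checkpoint genes of this group did not pass. Bub1b encodes BUBR1, which binds CDC20 in the mitotic checkpoint complex. It averaged 151 ± 2.91 CPM in LM2 and 146 ± 3.82 CPM in Parental, a log2 fold change of 0.05 ± 0.03 (adjusted p = 0.103). Ttk, which encodes the kinase MPS1 that starts checkpoint signalling, was the least abundant member per length, at 10.0 ± 0.350 TPM in LM2 and 10.7 ± 0.643 TPM in Parental. Its log2 fold change of -0.10 ± 0.06 did not pass (adjusted p = 0.146), and its libraries overlap.

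The partners of Aurora B moved apart. Birc5, survivin, fell with 122, 119.8 and 122 CPM in LM2 replicates 1 to 3, against 139.7, 136 and 141 CPM in Parental. Cdca8, borealin, rose with 135, 138 and 128 CPM in LM2 replicates 1 to 3, against 121, 124 and 125 CPM in Parental. The libraries do not overlap in either gene. The log2 fold change was -0.20 ± 0.03 for Birc5 and 0.12 ± 0.03 for Cdca8 (edgeR adjusted p = 0.00161 for Cdca8). Incenp, the scaffold of the same complex, was not among the members and is included in the checkpoint list described further on.

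The pair of genes that act with the anaphase-promoting complex also moved in opposite directions. Cdc20, the activator that the spindle checkpoint holds back, had the largest rise of the 30 genes. It had 262, 268 and 259 CPM in LM2 replicates 1 to 3, against 219, 208 and 212 CPM in Parental replicates 1 to 3. The level was 1.24-fold higher in LM2, with no overlap of libraries (log2 fold change 0.30 ± 0.03, edgeR adjusted p = 9.04e-10). Ube2c, the ubiquitin-conjugating enzyme of the same ligase, had 159, 154 and 152 CPM in LM2 and 193, 193 and 191 CPM in Parental, a log2 fold change of -0.31 ± 0.03. Both genes share sequence with others. In Cdc20, 26.7% of the 31-base words are shared, chiefly with the predicted gene Gm7856, which was assigned 0.0379 CPM in LM2 and 0.00826 CPM in Parental. In Ube2c, 25.0% are shared, chiefly with Tnnc2, which was assigned 0.0446 CPM in LM2 and 0 CPM in Parental.

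Of the 5 kinesins 4 fell. Kif23, a motor of the central spindle needed for cytokinesis, had 82.0, 83.9 and 80.6 CPM in LM2 replicates 1 to 3, against 109, 109.9 and 107 CPM in Parental. Its log2 fold change was -0.40 ± 0.03, and -0.29 when the effective length of its transcripts was taken into account. Kif20a, which carries the passenger complex to the central spindle, averaged 138 ± 2.61 CPM in LM2 and 169 ± 3.98 CPM in Parental, a log2 fold change of -0.30. It shares 26.7% of its words, chiefly with its neighbour Cdc23, at 62.6 ± 2.61 CPM in LM2 and 71.0 ± 2.54 CPM in Parental. Kif11, the motor that pushes the spindle poles apart, fell by 0.15 on the log2 scale. Kif2c, a depolymerase that frees wrongly attached microtubules, averaged 99.96 ± 0.932 CPM in LM2 and 96.8 ± 1.35 CPM in Parental and did not pass (adjusted p = 0.167), although its LM2 libraries lay above its Parental libraries.

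Cenpe, the kinesin of the kinetochore, fell with a wider spread. It had 133, 155 and 149 CPM in LM2 replicates 1 to 3, against 177, 191 and 184 CPM in Parental. LM2 replicate 1 was the lowest library for Cenpe, Cenpf and Mki67, whose main transcripts of 7910, 11130 and 10061 bases are the longest among the members. The same library was also the lowest for Top2a, Tpx2, Hmmr, Kif11, Plk1 and Aurka, with main transcripts of 1862 to 5221 bases. The log2 fold changes as reported were -0.33 for Cenpe, -0.21 for Cenpf and -0.29 for Mki67. Without that library they were -0.28, -0.18 and -0.24, and all 3 were called.

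All 5 proteins that bind and bundle spindle microtubules had lower RNA in LM2. Ckap2, a microtubule stabiliser of the spindle, had the largest fall of the 30 genes. It had 51.8, 46.7 and 48.7 CPM in LM2 replicates 1 to 3, against 78.0, 78.0 and 80.7 CPM in Parental replicates 1 to 3, and was 1.61-fold lower (log2 fold change -0.69 ± 0.04, edgeR adjusted p = 5.24e-13). Every LM2 value lay well under every Parental value. Nusap1, which links microtubules to chromosomes, averaged 51.3 ± 0.758 CPM in LM2 and 62.9 ± 1.56 CPM in Parental, a log2 fold change of -0.29, and of -0.19 with effective length taken into account. Hmmr, a spindle pole protein and hyaluronan receptor, averaged 152 ± 3.57 CPM in LM2 and 181 ± 1.32 CPM in Parental. Tpx2, the activator of Aurora A, averaged 276 ± 7.19 CPM in LM2 and 318 ± 3.21 CPM in Parental. Prc1, which bundles microtubules of the spindle midzone, fell by 0.16 on the log2 scale.

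The centromere genes fell together. Cenpa, the histone variant that marks the centromere, averaged 98.7 ± 2.42 CPM in LM2 and 113 ± 2.51 CPM in Parental, a log2 fold change of -0.20. Cenpf, an outer kinetochore protein, had 181, 198 and 195 CPM in LM2 replicates 1 to 3, against 226, 228 and 209 CPM in Parental, without overlap.

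Among the members that act in cytokinesis, Kif23, Kif20a and Prc1 of the central spindle fell, as given above. Anln and Ect2, of the contractile ring and its RhoA signal, were not called lower. Racgap1, the central spindle partner of Kif23 and not a member, did not pass, as given further on, so no split by structure is drawn. Anln, anillin, the scaffold of the contractile ring, had 298, 309.8 and 302 CPM in LM2 replicates 1 to 3, against 288, 284 and 275 CPM in Parental, a log2 fold change of 0.10 ± 0.03 (edgeR adjusted p = 0.00150). Ect2, which activates RhoA at the cell equator, averaged 95.0 ± 3.04 CPM in LM2 and 93.7 ± 1.87 CPM in Parental and did not pass (adjusted p = 0.597), and its libraries overlap.

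Top2a and Mki67, the usual proliferation markers, fell. Top2a, the topoisomerase that untangles sister chromatids, had the highest CPM of the 30 genes, with 647, 687 and 672 CPM in LM2 replicates 1 to 3, against 765, 763 and 761 CPM in Parental. Its log2 fold change was -0.19 ± 0.02, beyond the spread of either line. Mki67, which encodes the Ki-67 protein that coats mitotic chromosomes, had 138, 159.6 and 156 CPM in LM2, against 190.1, 191 and 174 CPM in Parental. Its log2 fold change of -0.29 ± 0.07 had the largest standard error of the members, and its adjusted p of 0.0136 was the highest among those called.

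Sequence shared with other genes exceeded 10% of the 31-base words in 8 members, of which 4 were named above. The others were Plk1 (14.8%), Prc1 (12.5%), Ccna2 (11.99%) and Ckap2 (10.3%). Ccna2 shares words chiefly with Exosc9, at 73.8 ± 2.64 CPM in LM2 and 80.3 ± 0.820 CPM in Parental, and Ckap2 with Gm7988, at 0 CPM in both lines. Plk1 shares words with Plk-ps1, at 0.577 CPM in LM2 and 0.481 CPM in Parental, and Prc1 chiefly with Rccd1, at 8.47 CPM in LM2 and 7.30 CPM in Parental.

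Per length, the most abundant member was Cdk1, at 324 ± 5.77 TPM in LM2 and 470.0 ± 7.28 TPM in Parental. Ube2c followed at 306 ± 5.32 TPM in LM2 and 371 ± 3.46 TPM in Parental, then Top2a at 267 ± 16 TPM in LM2 and 299 ± 2.26 TPM in Parental. By mean TPM, Cdc20 lay above Birc5 and Cenpa in LM2 and below both in Parental, where its libraries overlap those of Cenpa. Cdc20 averaged 249.6 ± 6.83 TPM in LM2 and 199 ± 5.22 TPM in Parental. Birc5 stood at 232 ± 1.30 TPM in LM2 and 262 ± 4.13 TPM in Parental. Cenpa stood at 178 ± 7.52 TPM in LM2 and 207 ± 6.85 TPM in Parental. The first rank of Cdk1 rests on a short transcript described next, which is annotated as a retained intron. Coding transcripts gave 45.5% of the TPM of Cdk1 in LM2 and 43.3% in Parental, against 100% for Ube2c in both lines.

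The share of each gene's TPM given by its transcripts was compared between the lines. In 14 of the 30 genes a single transcript gave at least 90% of TPM in both lines. The leading transcript was taken as that with the largest mean share over the 6 libraries. Its libraries did not overlap between the lines in Cdk1, Kif23, Nusap1 and Cenpf, which are 4 of the 29 members with more than 1 transcript. The same held for 16.8% of the 11469 tested genes with more than 1 transcript, so the count among the members is near the background. For Cdk1, the transcript Cdk1-204, of 475 bases and annotated as a retained intron, gave 51.3%, 51.5% and 53.5% of the gene's TPM in LM2 replicates 1 to 3, against 54.4%, 55.1% and 54.3% in Parental. The coding Cdk1-202 gave 43.8% ± 0.933 in LM2 and 41.9% ± 0.680 in Parental. For Nusap1, the coding Nusap1-202 gave 49.1% ± 2.21 in LM2 and 55.4% ± 1.77 in Parental, and the 557-base processed transcript Nusap1-203 gave 40.1% ± 2.35 in LM2 and 34.2% ± 2.74 in Parental. For Kif23, the coding Kif23-201 gave 32.6% ± 1.70 in LM2 and 36.9% ± 1.74 in Parental (SD, n = 3 each). The 392-base processed transcript Kif23-212 gave 35.8%, 33.9% and 32.6% in LM2 replicates 1 to 3, against 25.8%, 31.1% and 34.95% in Parental. Kif23-212 thus lay above Kif23-201 in all 3 LM2 libraries and below it in all 3 Parental libraries, although the lines overlap in its share. Kif23 was the 1 member whose first transcript by mean share differed between the lines. These are descriptions, since 3 libraries against 3 cannot pass an exact permutation test, and shares of short transcripts depend on how kallisto divided reads.

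**Figure D2:**
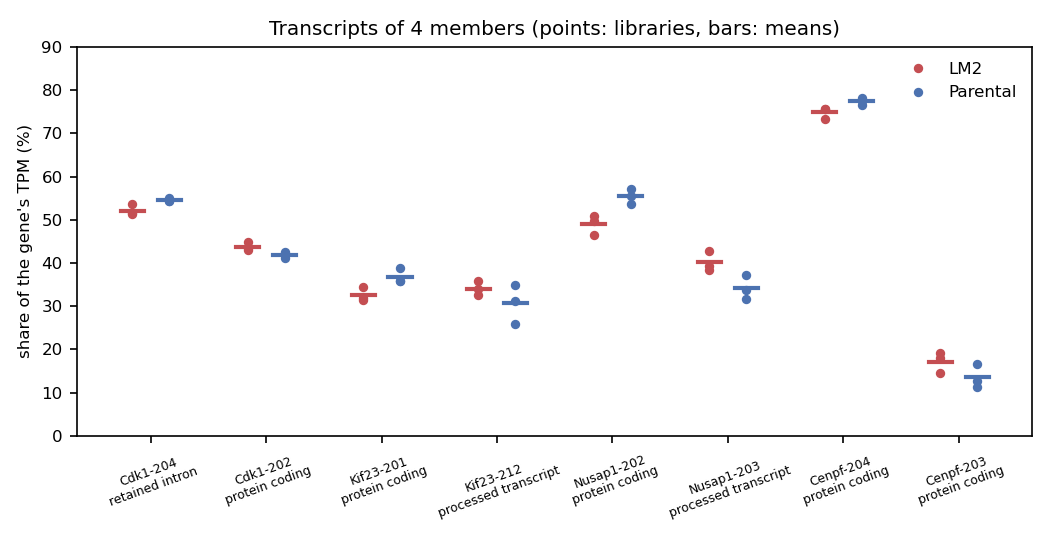
Share of the gene's TPM given by named transcripts of the 4 genes whose leading transcript did not overlap between the lines, with points for libraries and bars for means of 3. Cdk1-204, Nusap1-202, Kif23-201 and Cenpf-204, which lead by mean share over the 6 libraries, lie lower in LM2 than in Parental by a few percentage points, and in LM2 Kif23-212 lies above Kif23-201.

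The direction of the change differed between chromosomes. The 30 genes are spread over 13 chromosomes. Over all tested genes, chromosome 4 had a median log2 fold change of 0.39 over 829 genes, chromosome 8 a median of -0.31 over 702 genes and chromosome 10 a median of -0.33 over 662 genes. On the other chromosomes that hold members the medians lay between -0.06 and 0.07. The 3 members on chromosome 4, Cdc20, Cdca8 and Kif2c, had log2 fold changes of 0.30, 0.12 and 0.05, and Cdc20 and Cdca8 were 2 of the 3 members that rose, on a chromosome where 73.6% of all tested genes were called higher. The largest fall, Ckap2, lies on chromosome 8, and the next largest, Cdk1, on chromosome 10, where 64.5% and 62.8% of all tested genes were called lower. Among the 25 members on the other chromosomes, 21 fell and 1, Anln, rose, against 29.0% called lower and 30.6% called higher among all tested genes there.

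Set against its own chromosome, nearly every member was low. In 28 of the 30 genes the log2 fold change was below the median of the other tested genes of the chromosome, and the median of the 30 differences was -0.23. Cdc20 lay 0.08 below the median of chromosome 4 although it rose, Cdca8 0.27 below and Kif2c 0.34 below. Ckap2 differed from the chromosome 8 median by -0.38 and Cdk1 from the chromosome 10 median by -0.21. Kif23, on chromosome 9, had the largest distance, at -0.43. Bub1b and Anln were the 2 genes above their chromosome, at 0.05 and 0.07. No test was made of these distances, since genes of 1 chromosome are not replicates.

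**Figure D3:**
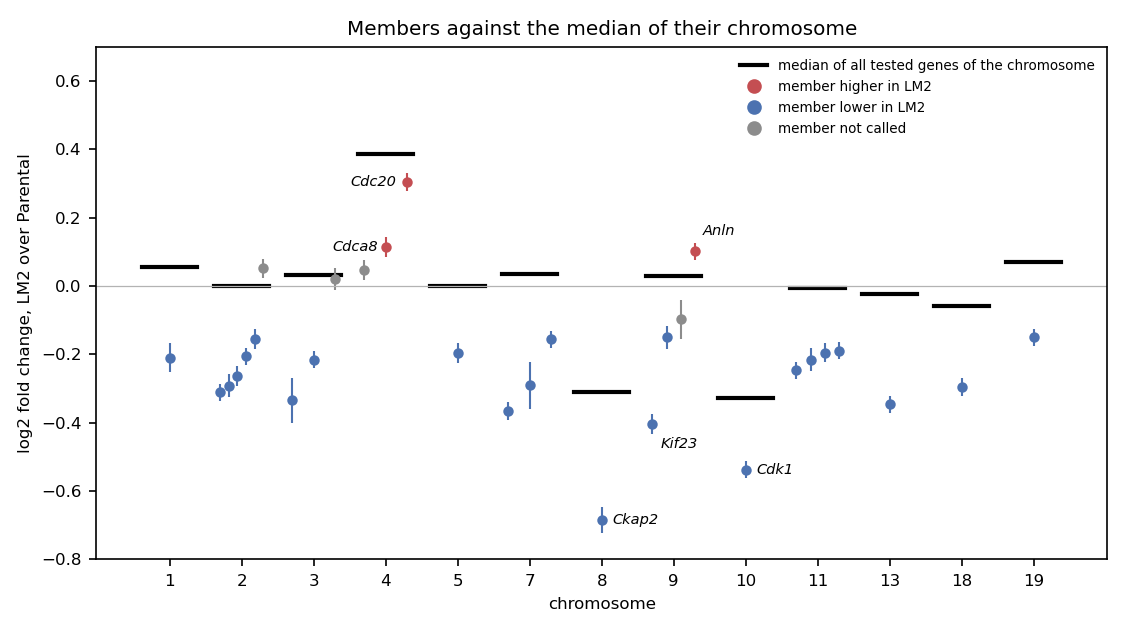
Log2 fold change, LM2 over Parental, of each of the 30 genes (points, with standard errors) by chromosome, with the median of all tested genes of that chromosome as a black bar. The points on chromosome 4 lie above 0 and below their bar at 0.39, and those on chromosomes 8 and 10 lie below bars at -0.31 and -0.33.

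Most members were also low beside their nearest genes. Against the median of the 10 tested genes on each side, 26 members were lower, with a median difference of -0.24, and the exceptions were Bub1b, Anln, Ect2 and Cdc20. Around Ckap2, 15 of the 20 neighbours were called lower and 1 higher, and their median log2 fold change was -0.51, which is nearer to that of Ckap2 than the chromosome's median is. Around Cdk1, 11 were called lower and 2 higher, with a median of -0.23. The neighbours of Cdc20 had a median of 0.28, with 13 called higher and 1 lower, and Cdc20 at 0.30 lay at their level. Around Cdca8 16 of the 20 neighbours were higher, with a median of 0.33, and none was lower. These counts stand beside whole chromosomes with 64.5% of tested genes called lower on 8, 62.8% lower on 10 and 73.6% higher on 4.

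Other genes of mitosis, in 6 lists written from textbook knowledge, were also mostly lower. Like the members, these lists were chosen with earlier results of these data known. Of 124 tested genes in these lists, 77 (62.1%) were called lower and 14 (11.3%) higher, with a median log2 fold change of -0.15. Over all tested genes 31.1% were called lower and 31.4% higher. On chromosome 4, 4 of 5 were higher and none was lower, against 73.6% higher among all tested genes of the chromosome. On chromosomes 8 and 10, all 10 were lower, against 63.7% of all tested genes there. On the other chromosomes 67 of 109 were lower and 10 higher, with a median of -0.13, against 29.0% lower and 30.6% higher among all tested genes there. A list of transcriptional regulators of the cell cycle is described after them.

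The kinetochore list was closest to the members in its median. Of its 33 tested genes 22 (66.7%) fell and 2 (6.06%) rose, with a median log2 fold change of -0.18. Over all tested genes 31.1% were called lower and 31.4% higher. On chromosomes 8 and 10 all 5 tested genes of this list were lower, against 63.7% of all tested genes there. On chromosomes other than 4, 8 and 10, 17 of 26 were lower, against 29.0% of all tested genes. Ska1, which couples kinetochores to microtubules, fell to 9.75 ± 1.205 CPM in LM2, against 16.4 ± 0.308 CPM in Parental. Dsn1, which links kinetochore and centromere, fell to 23.5 ± 1.18 CPM in LM2, against 38.9 ± 1.16 CPM in Parental, and Cenpu to 19.6 CPM in LM2, against 31.01 CPM in Parental. Cenps on chromosome 4 rose, with 26.4 ± 1.77 CPM in LM2 and 18.5 ± 0.105 CPM in Parental. Ndc80, which binds the microtubule, was at 80.7 CPM in both lines and did not pass.

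Of 12 checkpoint and passenger genes 8 (66.7%) fell and 1 (8.33%) rose (median -0.16), against 31.1% and 31.4% of all tested genes. Mad2l1, the MAD2 protein that binds CDC20 in the checkpoint complex, fell by 0.55 on the log2 scale, to 90.8 ± 2.30 CPM in LM2, against 133 ± 1.96 CPM in Parental. Zw10 fell by 0.40, and Mad1l1, which holds MAD2 at the kinetochore, rose by 0.14. Of 28 tested genes of the spindle, its motors and centrioles 19 (67.9%) fell and 3 (10.7%) rose (median -0.15). Depdc1a fell by 0.56 and the kinesin Kif18a, which dampens chromosome movement, by 0.49, while Stil, a centriole duplication factor on chromosome 4, rose by 0.44. Racgap1, the partner of Kif23 in the central spindle, had 419 ± 4.31 CPM in LM2 and 414 ± 3.41 CPM in Parental and did not pass. Psrc1 was not tested, at 0.114 CPM in LM2 and 0.0614 CPM in Parental.

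Of 19 condensin and cohesin genes 11 (57.9%) fell and 1 (5.26%) rose (median -0.10), against 31.1% and 31.4% of all tested genes. Ncapd2, a condensin I subunit, fell to 265 ± 5.21 CPM in LM2, against 397 ± 10.1 CPM in Parental, and Ncapg2 of condensin II fell by 0.49. Smc2, the ATPase of both condensins, lies on chromosome 4 and rose by 0.18. Rad21, the cohesin cleaved at anaphase, had a log2 fold change of -0.03 and did not pass. Of 19 genes of the anaphase-promoting complex and separase 11 (57.9%) fell and 3 (15.8%) rose (median -0.09). With effective length taken into account, 7 were lower. Fbxo5, the inhibitor EMI1 of that ligase, fell by 0.60, to 36.6 ± 1.14 CPM in LM2, against 55.6 ± 0.307 CPM in Parental, and Anapc10 and Cdc16 fell by 0.57 and 0.50. Fbxo5 lies on chromosome 10, and Anapc10 and Cdc16 on chromosome 8. Anapc13, Anapc11 and Cdc26 rose by 0.28, 0.26 and 0.21.

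The list of CDK1 control held genes that fell and genes that rose. Of 13, 6 (46.2%) fell and 4 (30.8%) rose, with a median of -0.03. Over all tested genes 31.1% were called lower and 31.4% higher, so the share that rose was near that of all genes. The cyclin F gene Ccnf fell by 0.43 and the phosphatase gene Cdc25c, whose product activates CDK1, by 0.25. Wee1, the kinase that inhibits CDK1, rose to 75.4 ± 1.75 CPM in LM2, against 64.0 ± 0.929 CPM in Parental, and Ensa, which restrains the phosphatase PP2A in mitosis, rose by 0.28. Cdc25b was at 153 CPM in LM2 and 156 CPM in Parental and did not pass.

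Of 21 tested transcriptional regulators of the cell cycle 13 (61.9%) fell and 6 (28.6%) rose (median -0.16). Over all tested genes 31.1% were called lower and 31.4% higher, so the share that rose was near that of all genes. On chromosomes 8 and 10 all 5 regulators were lower, against 63.7% of all tested genes there. Lin54 was not matched to a gene here. The E2F partner Tfdp1 fell to 81.2 ± 4.08 CPM in LM2, against 159 ± 0.926 CPM in Parental. Tfdp2, its relative, rose to 74.2 ± 1.74 CPM in LM2, against 37.4 ± 1.30 CPM in Parental. E2f8, a repressor, fell by 0.60 and E2f4, the E2F of the DREAM complex, by 0.49. E2f1, an activator, rose by 0.52, and Rbbp4, a MuvB subunit on chromosome 4, by 0.49. Tfdp1 and E2f4 lie on chromosome 8.

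**Figure D4:**
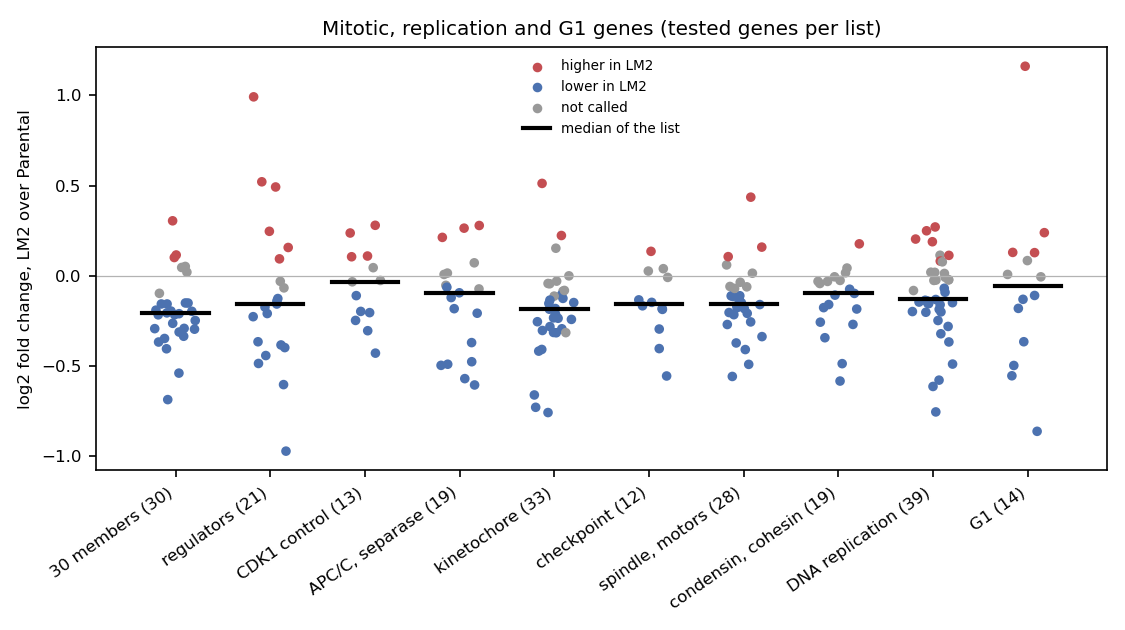
Log2 fold change, LM2 over Parental, of every tested gene in the 30 members, the cell cycle regulators, 6 lists of other mitosis genes, DNA replication and G1, with the list median as a black bar and colours for the call. Medians run from -0.21 for the members to -0.03 for the genes of CDK1 control.

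Genes of the earlier cell cycle were set beside the members. Of 39 tested genes of DNA replication 22 (56.4%) fell and 6 (15.4%) rose, with a median log2 fold change of -0.13. Over all tested genes 31.1% were called lower and 31.4% higher. On chromosomes 8 and 10, 6 of the 7 replication genes were lower, against 63.7% of all tested genes there. On chromosomes other than 4, 8 and 10, 16 of 31 were lower and 6 higher, against 29.0% and 30.6% of all tested genes. The median of the replication genes on those other chromosomes was -0.08, against -0.21 for the members there. Prim1 fell by 0.75, Mcm5 by 0.61 and Rrm2 by 0.58, while Pola2 and Cdc45 rose by 0.27 and 0.25. Of 14 tested G1 genes 7 fell and 4 rose (median -0.06). Ccnd2 fell to 679 ± 15.01 CPM in LM2, against 996 ± 6.78 CPM in Parental, and Ccnd1 rose to 474 ± 6.30 CPM in LM2, against 434 ± 7.37 CPM in Parental. Rb1, the retinoblastoma gene, rose to 17.2 ± 0.795 CPM in LM2, against 7.72 ± 0.257 CPM in Parental. The difference between these lists and the members was not tested.

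In the authors' deposited table of log2 fold changes all 30 members are listed, 24 below 0 and 6 above, with a median of -0.18. The authors' deposited table gives -0.69 for Ckap2, -0.56 for Cdk1 and 0.30 for Cdc20. The largest absolute distance between the authors' deposited table and the values here was 0.15, for Kif20a, which is at -0.45 there and -0.30 here. The table names neither log base nor direction. Both were taken from the values, whose median absolute distance from the log2 fold changes here was 0.0243 over 10544 genes, against 0.444 with the sign turned.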

How the data were processed

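RNA from 3 LM2 and 3 Parental libraries was measured with an mRNA library kit, per the labels. The authors deposited estimated counts and TPM of 117486 transcripts per library, made with kallisto 0.46.2 on build GRCm39, per the submitters' processing notes. The deposited TPM, scaled for length and depth, gave levels between genes and transcript shares. Transcript lengths and effective lengths, in bases, are as deposited. The deposited log2 fold changes of 11005 genes were only set beside the results. The transcript set and the strand setting were not given in the sources used here. Reads where genes overlap, or from an antisense partner, may be split between them.

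Transcripts were assigned to genes with GENCODE M21 (on GRCm38, used for names, chromosomes and gene order), which matched 116408 (99.1%). The other 1078, with 0.426% to 0.448% of counts, were left out. Estimated counts were summed per gene, rounded, filtered with filterByExpr, scaled with TMM and tested by robust quasi-likelihood in edgeR 4.0.16 in R 4.3.3, LM2 over Parental, with adjusted p below 0.05 as the call. The biological coefficient of variation was 0.0373, and 8654 genes had an unadjusted p below 0.05. CPM values carry the TMM scaling. Standard errors are the log2 fold change over the square root of F. Alternatives used DESeq2 1.42.0, limma 3.58.1 (voom), other filters and scaling, an effective length offset, a replicate block and leaving out each library. The test was first tried on simulated counts with known changes.

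The members and lists were chosen with earlier results of these data known. All members could be named. From each other list the rule named up to 3 called genes in either direction, ranked by size among those reaching 5 CPM, and the most abundant gene that did not pass. A planned search of protein motifs was not run. Promoters came from RefSeq tables on GRCm38.p6.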

Additional observations from a re-analysis of the deposited data

How the results depend on the processing

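The calls of all 30 members were on the same side of the threshold in every alternative run, with 23 lower and 3 higher in each. Only Ect2, which never passed, changed sign, to -0.0030 without a low-count filter, and it ranged from -0.011 to 0.037 without single libraries, below 0 only without LM2 replicate 1. The median log2 fold change of the members was -0.23 without a low-count filter and -0.20 with the effective length offset, and -0.22 to -0.20 without single libraries. Minus the median of all genes it was -0.23 without a filter, -0.20 with at least 1 CPM in 3 libraries, -0.23 with DESeq2, -0.19 with the length offset and -0.22 to -0.19 without single libraries. Some of these moves exceed the spread of the library medians (SD 0.00742), which is very small. Others, such as those without LM2 replicate 1 or without LM2 replicate 3, do not. The cause was not tested. The number of members below their chromosome's median was 27 to 28. All genes called ranged from 6985 with the length offset to 8596 without a filter. With the effective length offset, 7 genes of the anaphase-promoting complex list were lower, against 11. In promoter windows of 100 bases before the start, 17 members held both motifs, against 20. The replicate block gave 8250 calls, a members' median of -0.21 and the same 23 and 3 calls. Same-numbered libraries had correlations of -0.08, 0.05 and 0.01, and other pairs -0.09 to 0.07. Such values cannot tell whether same-numbered libraries were prepared together. The lowest count of a member in a library was 594, in Ttk, and whether depth limited any call was not tested. Shared sequence may limit Ccnb1, Cdc20, Kif20a, Ube2c, Plk1, Prc1, Ccna2 and Ckap2, and its effect on their values was not tested.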
